A study of Drosophila melanogaster with 12 samples.

Results

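Oxidative phosphorylation genes are described here over male and female Drosophila melanogaster at 3 stages. Members were the probe sets that the platform annotation assigns to 1 gene whose symbol begins with ND-, COX, ATPsyn, UQCR- or Sdh followed by A to D. The rule found 80 of 18769 non-control probe sets, which stand for 72 genes. They were split by name into 59 probe sets for subunits (51 genes) and 21 for paralogs (21 genes), whose symbols add an L, or an L and a digit, to a subunit's name. ND-MNLL, whose last letters belong to an amino-acid name, was kept with the subunits. Complex I had 30 subunit and 5 paralog probe sets, complex II had 3 and 3, complex III had 4 and 2, complex IV had 10 and 7, and complex V had 12 and 4. Another 4 probe sets that match the rule carry several genes and were not members.

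The animals came from the LHm outbred population, held at 25 °C. The 6 groups were male larvae, female larvae, male pupae, female pupae, male adults and female adults, with larvae taken in the third instar, and no treatment or mutation separates them. Each group had 2 biological replicates, each a pool of 10 individuals on 1 Affymetrix Drosophila Genome 2.0 array, and the labels name no dissected tissue and give no age or mating status of the adults. The question of the design is which genes the sexes express unequally, and how this develops over the stages.

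Oxidative phosphorylation takes place in the inner mitochondrial membrane. Complex I oxidises NADH and complex II oxidises succinate, complex III passes the electrons on to cytochrome c, complex IV reduces oxygen, and complex V, the ATP synthase, makes ATP from the resulting proton gradient. The subunits measured here are encoded in the nucleus. Insect flight muscle is packed with mitochondria, and in Drosophila the mitochondria of each spermatid fuse into a single body that elongates with the sperm tail. Testis and flight muscle markers are therefore set beside the results.

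All levels below are deposited log2 values, and a difference of 1 on this scale is a 2-fold difference. A level of one probe set cannot be set against that of another. Of all values in the table, 25% lay below 4.83 and the median was 6.57, so low levels lie close to the arrays' background and differences from them are compressed. A probe set was called at an adjusted p under 0.05 (limma, Benjamini-Hochberg over all 18769 probe sets). A value after ± is the standard error of a difference, and n is 2 arrays in every group. In such pooled samples, fewer cells of a type and less RNA per cell cannot be told apart.

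The arrays of the sexes differed in median level but hardly in mean level. Array medians were 6.73 to 6.81 in males and 6.27 to 6.44 in females. Array means were 6.967 to 6.997 in males and 6.939 to 6.981 in females, so the means overlapped. Over all probe sets the male minus female difference had a median of -0.23 for larvae, -0.37 for pupae and -0.21 for adults. Each sex difference is read beside these medians. The 18 hybridisation control probe sets, which read transcripts added during array hybridisation and not fly RNA, differed male minus female by a median of -0.43 in larvae, -0.73 in pupae (-0.98 to -0.065) and -0.011 in adults. A scaling called recentring below subtracts from an array its median departure from the 12-array mean of each probe set. It brought the medians over all probe sets, not those of the controls, to -0.043, -0.097 and 0.044. The controls were not recentred. Replicates correlated at 0.992 to 0.997 over all probe sets. The labels fit the markers: all 4 measured accessory gland genes were higher in male adults, and all 3 yolk protein genes were lower in male adults.

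The paralogs were higher in males at every stage, with a single exception. In larvae 20 of 21 were higher and 0 lower, against 11.9% of all probe sets higher and 27.1% lower. In pupae 20 were higher and 1 was lower, against a background of 14.3% and 51.9%, and in adults all 21 were higher, against 26.6% higher and 39% lower. The same 20 paralogs were higher at all 3 stages. How many of all probe sets were higher in males at all 3 was not computed. The paralogs' median difference was 2.70 at the larval, 4.55 at the pupal and 4.52 at the adult stage. Leaving aside the exception, COX7AL2, the values of the 20 ran from 6.42 to 10.14 in male larvae and from 3.82 to 6.67 in female larvae. In pupae they spanned 8.12 to 12.18 in males and 3.86 to 7.17 in females, and in adults 7.64 to 11.74 in males and 4.06 to 6.41 in females.

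**Figure D1:**
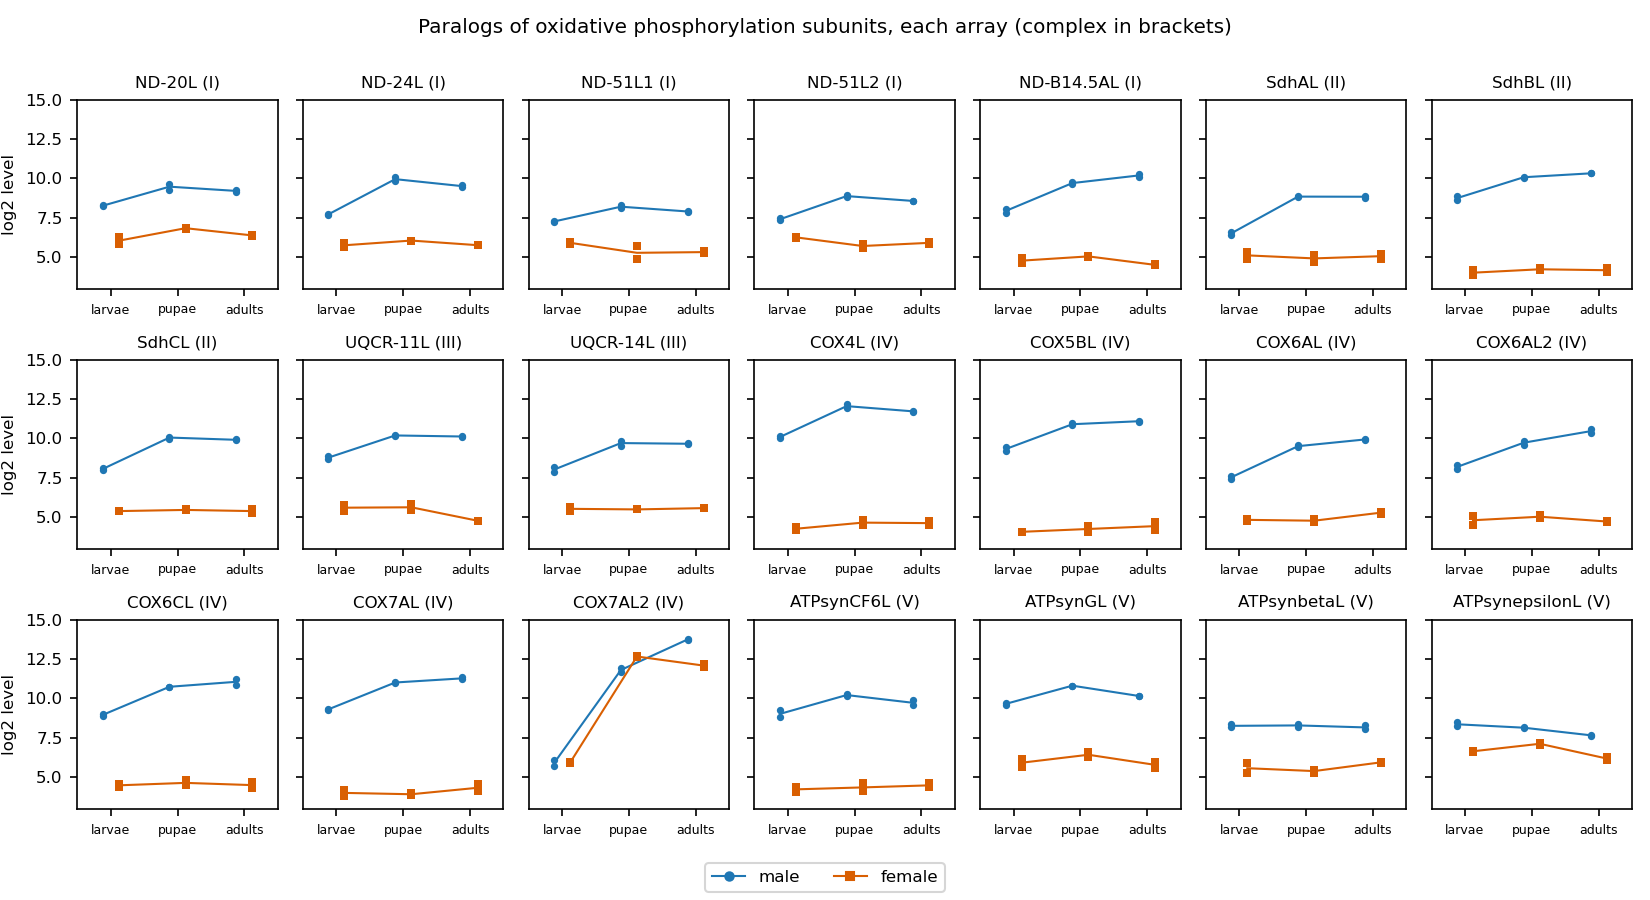
Log2 level of each paralog probe set on each array, by stage, with male arrays as blue circles left of female arrays as orange squares and lines through the group means. Each probe set has its own brightness, so courses and not heights can be compared between panels. COX7AL2 is the panel in which the sexes lie together in larvae and both are high in pupae and adults.

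The paralogs of complex IV, cytochrome c oxidase, included the largest sex differences. COX4L, the paralog of the nuclear subunit COX4, read 10.03 and 10.14 in male larvae against 4.18 and 4.38 in female larvae, 12.18 and 11.92 in male pupae against 4.49 and 4.84 in female pupae, and 11.74 and 11.69 in male adults against 4.51 and 4.76 in female adults. No female array came near a male array of any stage. The differences were 5.81 ± 0.15, 7.38 ± 0.15 and 7.08 ± 0.15 (adjusted p = 7.9e-10, 5.92e-11 and 3.24e-11, limma). COX7AL differed by 5.29, 7.08 and 6.93 over larvae, pupae and adults, and COX5BL by 5.24, 6.64 and 6.65. COX6CL, COX6AL and COX6AL2 were also higher in males throughout, by 2.70 to 4.46 in larvae and 4.64 to 6.55 in adults. All of these are relatives of small nuclear subunits that surround the catalytic core of the enzyme.

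Complex II, succinate dehydrogenase, also belongs to the tricarboxylic acid cycle, and paralogs of 3 of its subunits were measured. SdhBL, the relative of the iron-sulfur subunit SdhB, read 8.63 and 8.87 in male larvae against 4.21 and 3.85 in female larvae, 10.11 and 10.04 in male pupae against 4.19 and 4.30 in female pupae, and 10.33 and 10.32 in male adults against 4.31 and 4.06 in female adults. Male arrays stood apart from all female arrays, with differences of 4.72 ± 0.14, 5.83 ± 0.14 and 6.14 ± 0.14 (adjusted p = 1.87e-09, 1.44e-10 and 5.58e-11, limma). SdhCL, a relative of a membrane anchor, differed by 2.67, 4.58 and 4.52. SdhAL, a relative of the flavoprotein SdhA, read 6.42 and 6.63 in male larvae against 5.34 and 4.91 in female larvae, a difference of 1.40. It then differed by 3.91 in pupae and 3.76 in adults.

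Complex I paralogs differed by 1.14 to 3.14 in larvae. ND-51L1 and ND-51L2, relatives of the flavoprotein subunit ND-51, were higher in male larvae by 1.35 ± 0.20 and 1.14 ± 0.11 (adjusted p = 0.000568 and 2.24e-05, limma), in pupae by 2.92 and 3.16, and in adults by 2.57 and 2.65. ND-20L and ND-24L, relatives of core subunits that carry iron-sulfur clusters, differed by 2.22 and 1.96 in larvae and by 2.82 and 3.74 in adults. ND-B14.5AL, a relative of an accessory subunit, differed by 3.14 in larvae and had the widest adult difference of this complex, with 10.31 and 10.08 in male adults against 4.55 and 4.49 in female adults. The complex III paralogs UQCR-11L and UQCR-14L differed by 3.17 and 2.49 in larvae, 4.55 and 4.20 in pupae, and 5.34 and 4.08 in adults.

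Complex V held both wide and narrow differences. ATPsynCF6L, a relative of coupling factor 6 in the stalk of the enzyme, differed by 4.78 in larvae, 5.85 in pupae and 5.23 in adults. ATPsynGL differed by 3.72, 4.38 and 4.36. ATPsynbetaL, a relative of the catalytic beta subunit, differed by 2.68, 2.89 and 2.21. ATPsynepsilonL had the smallest pupal and adult difference of the 20. It read 8.22 and 8.50 in male larvae against 6.63 and 6.67 in female larvae, 8.13 and 8.16 in male pupae against 7.17 and 7.08 in female pupae, and 7.69 and 7.64 in male adults against 6.29 and 6.10 in female adults. The male and female arrays still did not overlap at any stage.

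COX7AL2 did not share the male pattern. This relative of COX7A read 5.73 and 6.09 in male larvae against 5.96 and 5.91 in female larvae, 11.67 and 11.94 in male pupae against 12.66 and 12.65 in female pupae, and 13.73 and 13.75 in male adults against 12.18 and 11.98 in female adults. Both sexes were thus low as larvae and high afterwards, with males below females as pupae and above them as adults. The sexes differed by -0.03 ± 0.14 in larvae (adjusted p = 0.874), -0.85 ± 0.14 in pupae (adjusted p = 0.000461) and 1.66 ± 0.14 in adults (adjusted p = 8.79e-07, all limma). The controls' medians of -0.73 in pupae and -0.011 in adults stand beside these values, and their part was not tested. Pupae were higher than larvae by 5.90 in males and by 6.72 in females, the largest stage difference of any member in each sex. Its probe set is of a type (_s_at) that can match transcripts of more than 1 gene.

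**Figure D2:**
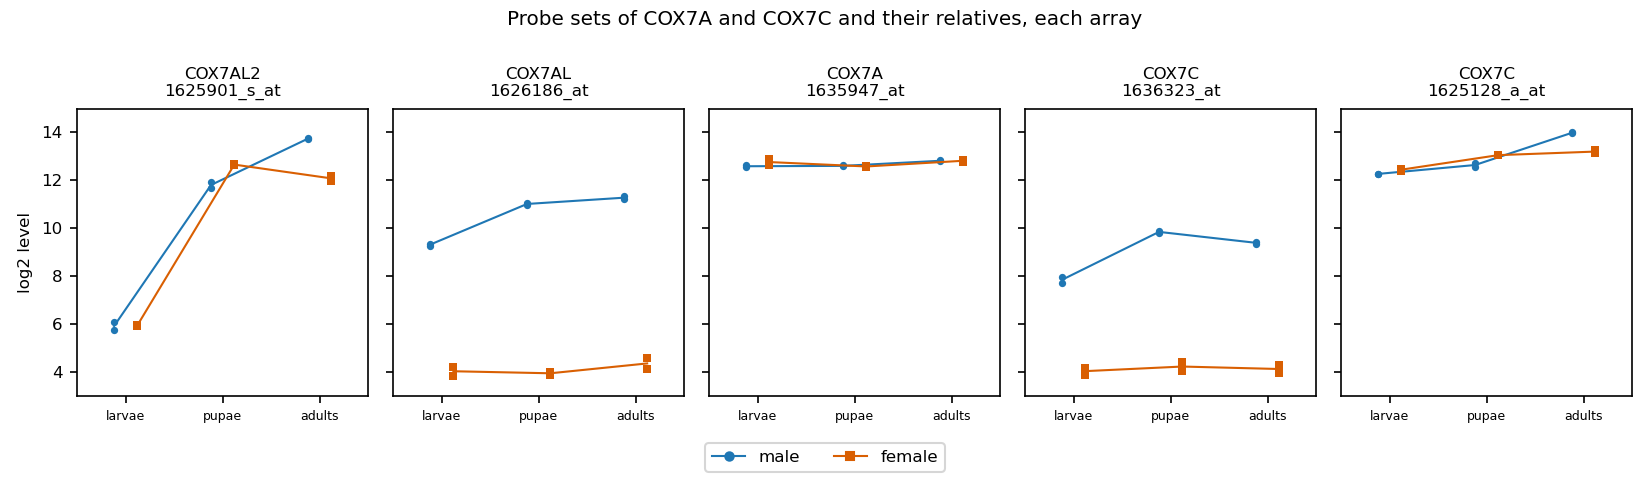
Log2 level of the COX7A and COX7C probe sets and their relatives on each array, by stage, with male arrays as blue circles left of female arrays as orange squares and lines through the group means. COX7A stays between 12.55 and 12.87 on all 12 arrays, COX7AL and 1 COX7C probe set split by sex at each stage, and COX7AL2 is low in larvae of both sexes.

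The subunit of which a paralog is a copy was measured for 18 of the 21 paralogs, 14 under the same prefix and 4 under another gene name. Some were measured at low levels. UQCR-11 read 4.80 to 5.99 over the arrays, and sun, the counterpart of ATPsynepsilonL, had group means of 6.02 to 6.95. The subunits ND-24, SdhA and ATPsynG were not analysed here as members with 1 gene. COX4 read 12.29 and 12.31 in male larvae against 12.41 and 12.34 in female larvae, and it differed between the sexes by -0.08, -0.44 and 0.56 over the stages, where COX4L differed by 5.81 to 7.38. SdhB differed by -0.23, -0.77 and 1.16 over the stages, where SdhBL differed by 4.72, 5.83 and 6.14. COX7A was called at no stage, except in pupae under array-median centring (-0.35), with differences of -0.17, 0.024 and -0.00086 beside the 5.29 to 7.08 of COX7AL. Paralog and counterpart thus carried sex differences of different size in each of these pairs, although the difference between paired probe sets was not tested.

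In males the paralogs were higher in pupae than in larvae for 19 of 21 probe sets and lower for 0, against 27.2% and 21.2% of all probe sets, with a median of 1.58 beside 0.0049 for all probe sets. The other two were ATPsynbetaL (0.03 ± 0.19, adjusted p = 0.929) and ATPsynepsilonL (-0.22 ± 0.11, adjusted p = 0.148, limma). In females 4 were higher and 2 lower in pupae, against 25.7% and 19.6%, with a median of 0.15. The male minus female difference itself, taken with its sign, rose from larvae to pupae for 16 paralogs and fell for 2, against 9.78% and 7.74% of all probe sets. Those 2 were COX7AL2, from -0.03 to -0.85, and ATPsynepsilonL, from 1.71 to 1.02. The 2 became 0 without male larvae replicate 2 and 1 without male pupae replicate 1. The largest widening was 2.52 ± 0.25 for SdhAL (adjusted p = 9.71e-05, limma). Between pupae and adults fewer paralogs were called: 4 were higher and 4 lower in male adults, against 18.8% and 32.2%, and 2 were higher and 6 lower in female adults, against 27.2% and 27.2%. The higher count in male adults became 1 without male adults replicate 1 and 2 without male pupae replicate 2. The lower count became 1 without male adults replicate 1, 2 without either male pupae array and 6 without either female pupae array. From pupae to adults the male minus female difference rose for 5 of 21 and fell for 1, against 25.5% and 26.1%.

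The testis germ line markers ran alongside. All 13 measured of 15 listed were higher in males at each stage. Of all probe sets 11.9% were higher in larvae, 14.3% in pupae and 26.6% in adults. The markers' mean level was 9.38 to 9.58 on male larval arrays against 4.89 to 5.12 on female ones. It was 10.67 to 10.77 in male pupae against 5.02 to 5.08 in female pupae. In male adults it was 10.78 to 10.87 against 4.67 to 4.78 in female adults. In males 10 of the 13 were higher and 0 lower in pupae than in larvae, against 27.2% and 21.2% of all probe sets. From pupae to adults 2 were higher and 1 lower in males (15.4% and 7.69%), against 18.8% and 32.2%. The part of germ line content in the paralog values was not tested.

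**Figure D3:**
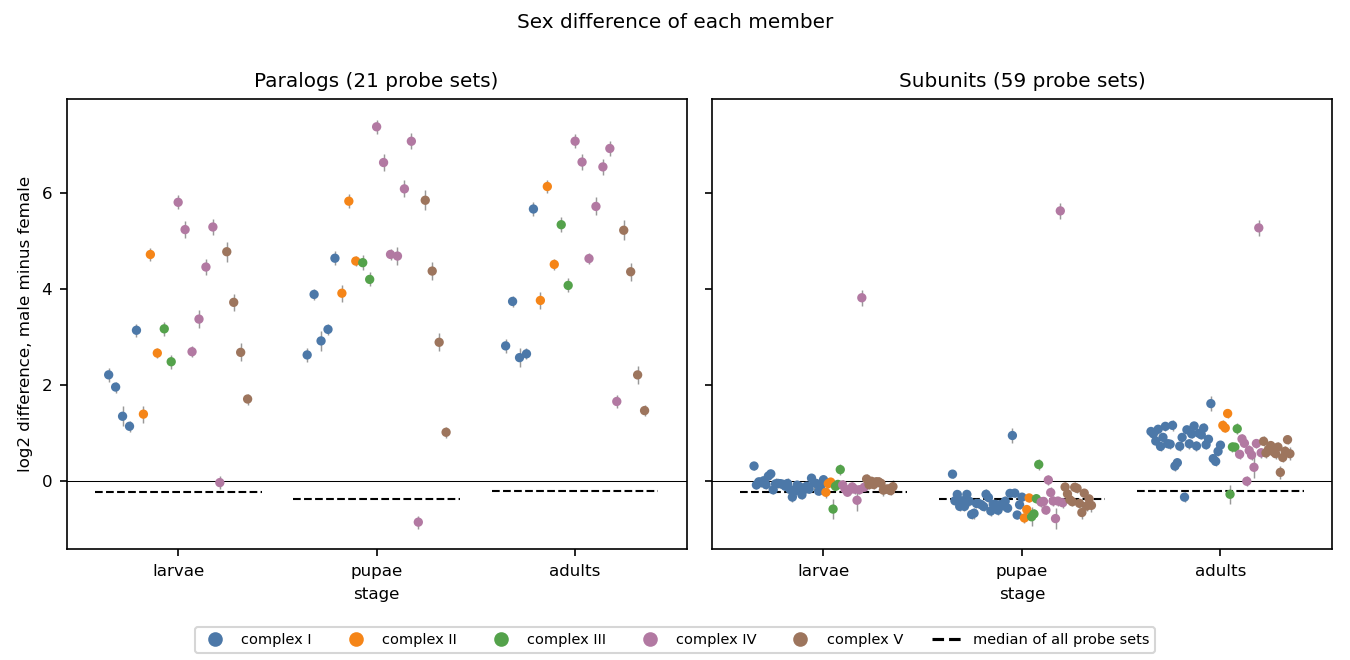
Male minus female log2 difference of each paralog (left panel) and subunit (right panel) probe set by stage, coloured by complex, with bars for the standard error and a dashed line at the median of all probe sets. All paralogs but COX7AL2 lie above 0 at each stage. Most subunits lie below 0 in pupae, where recentring leaves 11 of 59 called lower, and above 0 in adults, and the subunit point above 3 at each stage is a COX7C probe set.

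The subunits had another course. In larvae 2 of 59 subunit probe sets were higher and 3 lower in males, against 11.9% and 27.1% of all probe sets, and their median difference of -0.08 was above the median of all probe sets, -0.23. In pupae 3 were higher and 50 lower (84.7%), against 14.3% and 51.9% of all probe sets, and the median was -0.43 beside -0.37. The hybridisation controls had a median of -0.73 at this stage, and their part in the pupal count was not tested. Recentring left 4 higher and 11 lower, against 18% and 17.6% of all probe sets. In adults 54 were higher and 1 lower, where 26.6% of all probe sets were higher, with a median of 0.76 beside -0.21, and recentring gave 56 higher and 0 lower. Without recentring, 46 of the 59 were lower in male pupae and higher in male adults. The share of all probe sets with both calls was not computed. On the scale of the array medians, 56 were lower in male larvae and 56 in male pupae, where 79.2% and 80.6% of all probe sets were lower. In male adults 38 were then higher and 3 lower, against 20.1% and 67.6%.

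The adult difference ran through all complexes. In complex I 29 of 30 probe sets were higher in male adults with a median of 0.86, and in complex II 3 of 3 with 1.16. Complex III had 3 of 4 with 0.71, complex IV 8 of 10 with 0.62, and complex V 11 of 12 with 0.62. Of all probe sets 26.6% were higher and 39% lower, with a median of -0.21. The 8 of complex IV include a COX7C probe set, described below, that split by sex at each stage as the paralogs did. SdhD, a membrane anchor of complex II, read 10.36 and 10.42 in male larvae against 10.37 and 10.44 in female larvae, 11.27 and 11.37 in male pupae against 11.69 and 11.66 in female pupae, and 12.50 and 12.55 in male adults against 11.17 and 11.06 in female adults. The sexes overlapped as larvae and separated in opposite directions afterwards, and the adult difference was 1.41 ± 0.09 (adjusted p = 1.27e-07, limma). ATPsynbeta, the catalytic subunit of the ATP synthase, has 2 probe sets, which differed by 0.49 ± 0.09 (adjusted p = 0.000627) and 0.18 ± 0.13 (adjusted p = 0.228, limma) in adults. ND-B12, an accessory subunit of complex I, was the subunit lower in male adults, by -0.33 ± 0.11 (adjusted p = 0.0204, limma).

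**Figure D4:**
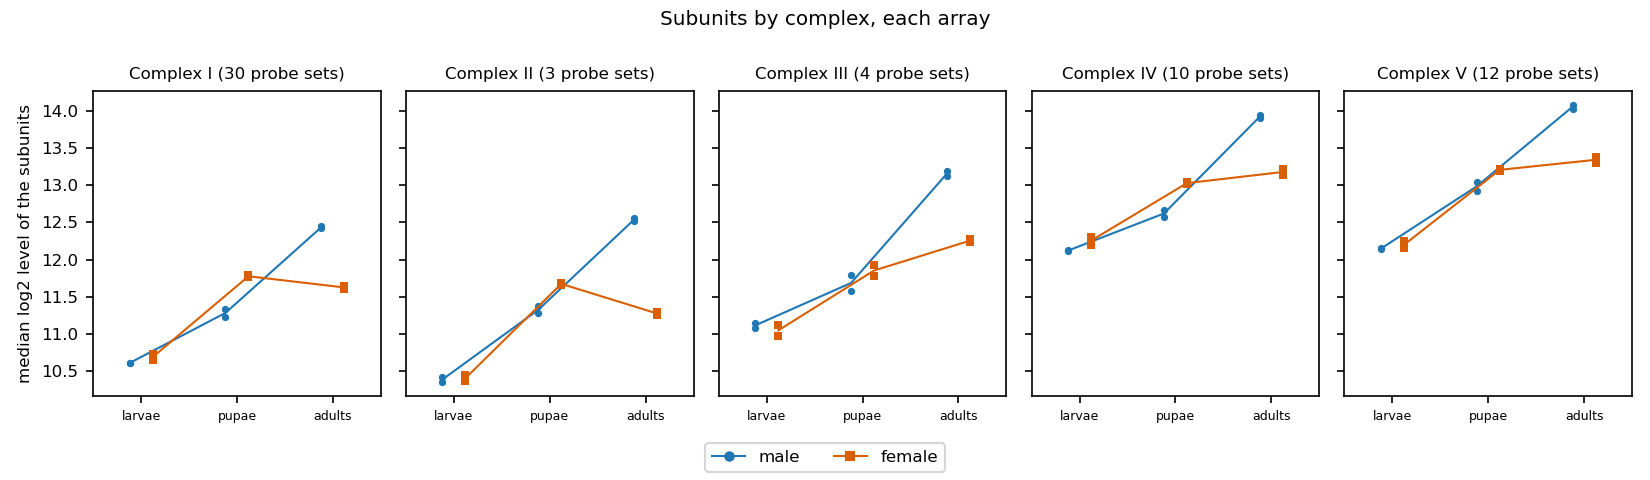
Median log2 level of the subunit probe sets of each complex on each array, by stage, with male arrays as blue circles left of female arrays as orange squares and lines through the group means. The medians are higher in pupae than in larvae in both sexes, and male adults lie above female adults in every complex.

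Subunit levels were higher in pupae than in larvae in both sexes, for 53 of 59 probe sets in males and 55 in females, and lower for 0 in each, with medians of 0.72 in males and 1.04 in females beside 0.0049 and 0.033 for all probe sets, of which 27.2% and 25.7% were higher. ATPsynC, which forms the rotating ring of the ATP synthase, had 13.72 and 13.81 in male pupae against 12.15 and 12.22 in male larvae, and 14.03 and 14.03 in female pupae against 12.34 and 12.17 in female larvae. Both pupal arrays of each sex lay above both larval arrays, by 1.58 ± 0.10 in males and 1.78 ± 0.10 in females (adjusted p = 2.49e-07 and 9.56e-08, limma). ND-75, the large iron-sulfur subunit of complex I, was higher in female pupae by 1.67, and ND-42 by 1.51.

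Between pupae and adults the sexes parted. In males 54 subunit probe sets were higher in adults and 1 was lower, with a median of 1.20 beside -0.071 for all probe sets, of which 18.8% were higher. In females 10 were higher and 12 lower (16.9% and 20.3%), against 27.2% and 27.2% of all probe sets, with a median of -0.023 beside -0.045, and 37 were not called; the 10 became 5 without either female pupae array and 6 without either female adults array. The change of the male minus female difference, taken with its sign, was tested directly. From pupae to adults it rose for 55 of 59 subunit probe sets and fell for 0, against 25.5% and 26.1% of all probe sets. The median change was 1.13 beside 0.097 for all probe sets. The controls' median moved by the same sign, with -0.011 in adults against -0.73 in pupae, and its part was not tested. SdhB changed most, by 1.93 ± 0.16 (adjusted p = 2.23e-06, limma), and ND-75 by 1.83 ± 0.16 (adjusted p = 3.79e-06, limma). SdhB read 12.52 and 12.35 in male adults against 10.49 and 10.73 in male pupae, and 11.25 and 11.29 in female adults against 11.33 and 11.42 in female pupae. The 4 subunit probe sets not called were those of ND-B12, UQCR-11, COX7A and 1 of COX7C. From larvae to pupae the male minus female difference rose for 2 and fell for 12 subunit probe sets, against 9.78% and 7.74% of all probe sets. The subunit median went from -0.08 to -0.43, so a fall here does not mean a narrower gap between the sexes. Recentring left 2 and 2, against 10.7% and 5.06% of all probe sets. The 14 called in either direction became 3 without male larvae replicate 1 or male pupae replicate 1.

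Counts at the female step are given by complex, against the same 27.2% and 27.2%. Complex I had 3 higher and 11 lower in female adults, complex II 0 and 1, complex III 2 and 0, complex IV 4 and 0, and complex V 1 and 0. SdhD was lower in female adults by -0.56 ± 0.09, ND-B17 by -0.53 ± 0.09 and ND-B16.6 by -0.48 ± 0.10 (adjusted p = 0.000359, 0.000401 and 0.00167, limma), while UQCR-Q was higher by 0.50 and a COX7B probe set by 0.49. Differences between complexes were not tested. Quantile normalization gave 16 higher and 9 lower in females, against 27.6% and 25.9% of all probe sets. Recentring gave 16 and 9, against 29.2% and 23.9%. Centring on array medians gave 22 and 5, against 32.7% and 20.8%.

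ND-B8, an accessory subunit of complex I, stood out in both sexes. It read 5.51 and 5.67 in male larvae against 5.39 and 5.86 in female larvae, 6.07 and 6.34 in male pupae against 5.30 and 5.20 in female pupae, and 8.75 and 8.99 in male adults against 7.28 and 7.23 in female adults. The sexes overlapped only in larvae, and males were higher by 0.95 ± 0.16 in pupae and 1.62 ± 0.16 in adults (adjusted p = 0.000666 and 4.53e-06, limma). Adults exceeded pupae by 2.67 ± 0.16 in males and 2.01 ± 0.16 in females, the largest step of any subunit in each sex (adjusted p = 1.4e-07 and 1.18e-06, limma).

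**Figure D5:**
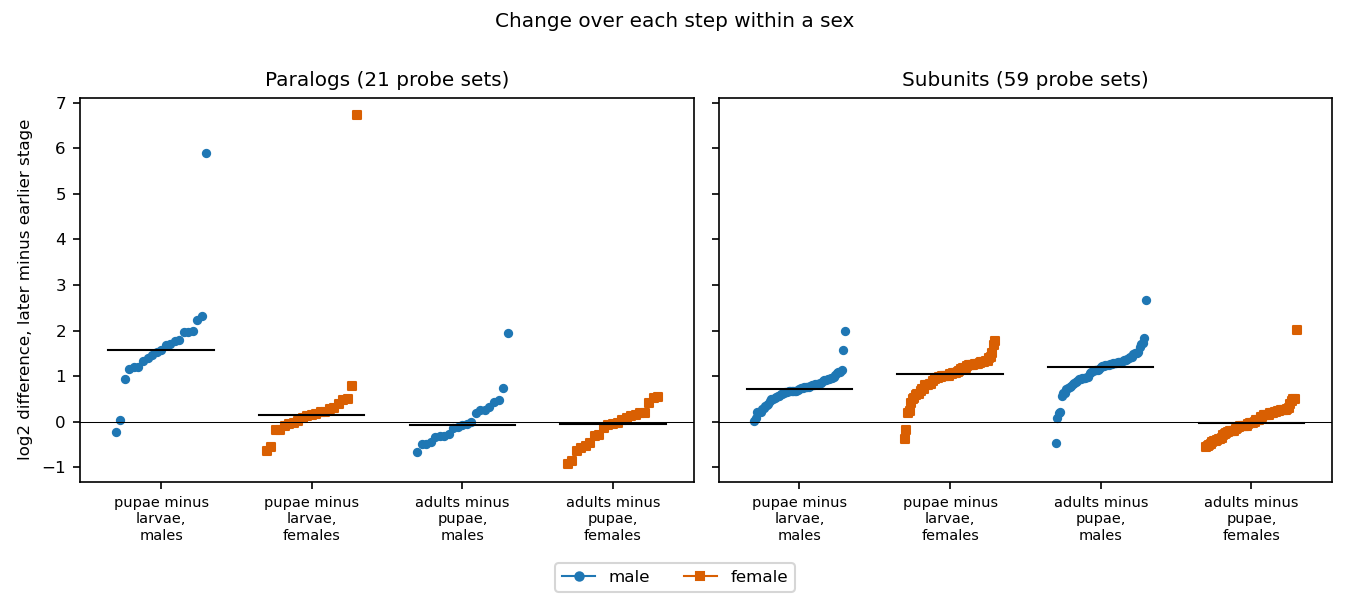
Log2 difference between neighbouring stages (later minus earlier) of each paralog (left panel) and subunit (right panel) probe set, sorted by size, with male values as blue circles, female values as orange squares and a black bar at each median. The subunit medians are 0.72 in males and 1.04 in females at the step to pupae, and 1.20 in males and -0.023 in females at the step to adults.

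Flight muscle markers are set beside the subunits. Act88F, fln, TpnC4 and TpnC41C had group means of 3.45 to 5.71 in larvae and 10.55 to 14.58 in pupae. Mf, up, flr, sls and Strn-Mlck already had means of 8.61 to 13.89 in larvae. The list is therefore not confined to genes that come on after the larva, and its counts and means mix both kinds. Of the 9 listed and measured, 8 were higher and 1 lower in male adults, with a median of 1.39, against 26.6% and 39% of all probe sets, and 0 were higher and 7 lower in male pupae, against 14.3% and 51.9%. Their mean level was 12.06 to 12.13 on male adult arrays against 10.84 to 11.01 on female adult arrays, and 10.46 to 10.47 on male pupal arrays against 11.18 to 11.31 on female pupal arrays. From larvae to pupae 5 were higher and 2 lower in each sex (55.6% and 22.2%). Of all probe sets 27.2% and 21.2% were so called in males, and 25.7% and 19.6% in females. No subunit was lower at this step. From pupae to adults 7 were higher and 1 lower in males, against 18.8% and 32.2% of all probe sets. In females 1 was higher and 7 lower with a median of -1.02, against 27.2% and 27.2% of all probe sets. The subunits had 10 higher, 12 lower and a median of -0.023 at this female step. Of 7 listed adult eye genes 2 were measured, and both were lower in male pupae and higher in male adults. In female adults the 8 measured ovary markers stood at a mean of 12.34 to 12.36, against 5.41 to 5.48 in male adults. The part of muscle, eye or ovary share in the subunit values was not tested.

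One of the COX7C probe sets was higher in males at all 3 stages, as the paralogs were, although the platform table assigns it to the subunit gene. It read 7.72 and 7.96 in male larvae against 3.87 and 4.16 in female larvae, 9.81 and 9.87 in male pupae against 4.42 and 4.01 in female pupae, and 9.42 and 9.35 in male adults against 4.27 and 3.95 in female adults, which is a clear split by sex. Its differences were 3.82 ± 0.17, 5.63 ± 0.17 and 5.28 ± 0.17 (adjusted p = 2.27e-08, 5.03e-10 and 4.08e-10, limma), and the other COX7C probe set gave -0.18, -0.41 and 0.78. RefSeq names (Release 6) place COX7CL next to COX7C on chromosome arm 2R with 0 genes between them, and no probe set of the platform table is assigned to COX7CL. Which gene the probe set reads was not tested. Of the 21 paralogs, COX5BL has 1 gene between it and its counterpart COX5B on arm 2L, COX7AL has 2 between it and COX7A on arm 3R, and SdhCL has 15 between it and SdhC on arm 3R. The others lie farther away or on another arm.

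Oxidative phosphorylation genes of other names, a list written with earlier results of these data known, had 10 of 24 members measured. Of these, 2 were higher and 0 lower in male larvae (11.9% and 27.1% of all probe sets), 2 and 5 in male pupae (14.3% and 51.9%), and 8 and 2 in male adults (26.6% and 39%). One of the 10, stl, is not a subunit and was listed in error, and it is 1 of the 2 lower in male adults. Cyt-c1L, a relative of cytochrome c1, and knon, which acts in the mitochondria of Drosophila spermatids, were higher in males at each stage, by 2.17, 3.69 and 3.37 for Cyt-c1L and by 4.09, 5.27 and 4.57 for knon. RFeSP, the iron-sulfur protein of complex III, was higher in male adults by 1.12, ox by 1.06 and cype, the COX6C subunit, by 0.75. The ATP synthase epsilon subunit gene sun was lower in male adults, by -0.93. Its means were 6.02 in male adults and 6.95 in female adults, near the median of all values, 6.57.

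Other mitochondrial pathways, also lists written with earlier results known, went opposite ways in adults. Of 15 measured tricarboxylic acid cycle genes, 7 were higher and 2 lower in male larvae (11.9% and 27.1% of all probe sets), 7 and 7 in male pupae (14.3% and 51.9%), and 13 and 0 in male adults (26.6% and 39%). The relatives mAcon2, Fum2, Fum3, Fum4, CG10748 and CG10749 were higher in males at all 3 stages. Group means of ScsbetaA were also higher in males throughout, with 11.69 against 11.30 in larvae, 12.29 against 11.73 in pupae and 13.00 against 11.70 in adults. Of 12 measured genes for mitochondrial DNA and RNA synthesis and its regulators, 1 was higher and 5 lower in male larvae (11.9% and 27.1%). In male pupae 0 were higher and 10 lower (14.3% and 51.9%). In male adults 0 were higher and 12 lower (26.6% and 39%), with a median of -1.68 beside -0.21 for all probe sets. Those include mtSSB, the single-strand binding protein (-4.11), mtDNA-helicase (-3.74) and TFAM, which packages mitochondrial DNA (-1.46). Ovary markers were high in the same female adult arrays, as given above.

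The chromosome arms of the genes are given as a description. Of the 21 paralogs 1 lies on the X chromosome (4.76%), of the 51 subunit genes 10 do (19.6%), and of all measured genes 15.7% do. All 72 member genes matched RefSeq names of Release 6. Multiple probe sets of 1 gene existed for 6 member genes. The UQCR-11 probe set read 4.80 to 5.99 over the 12 arrays and 1 of the 3 COX7B probe sets 3.68 to 4.73, both close to the background.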

How the data were processed

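The deposited table holds log2 values made by the authors, 1 per probe set and array, for 18952 probe sets on 12 arrays. RMA, which corrects background, normalizes arrays and summarises probes, is named in the submitters' processing notes. No version or setting of it is given in the sources used here. Control probe sets (183) were dropped, and no filter on low values was applied, so all 80 members were tested. Of the 18769 tested, 13647 carried 1 gene, 402 several and 4720 none by the platform annotation, and 0 columns of per-sample values were left unused. limma 3.58.1 in R 4.3.3 fitted 6 group means to all 12 arrays, with 6 residual and 4.10 prior degrees of freedom. Contrasts were male minus female at each stage, later minus earlier stage within a sex, and the changed sex difference. The threshold was an adjusted p of 0.05 (Benjamini-Hochberg within a contrast). The number of arrays limits the precision.

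Members and gene lists were chosen with earlier results of these data known. Named were all paralogs, their counterparts, and, per sex or stage comparison, the 3 other called subunits with the largest difference in each direction, with further members where singled out. Replicate numbers do not pair the samples: 0 of 15 correlations of deviations exceeded 0.1 (-0.0765 to 0.0822). Alternatives were quantile normalization, array-median centring, recentring, a minimum log2 level of 6, 1 probe set per gene, the compared groups alone, eBayes with a trend and robust prior, a replicate block, and omission of each array.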

Additional observations from a re-analysis of the deposited data

Results flagged for a closer look

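The change of the sex difference between stages was the test that brought the following results forward, and no explanation was weighed. From larvae to pupae, the male minus female difference, taken with its sign, rose for 16 paralogs and fell for 2. It rose for 2 subunit probe sets and fell for 12. Of all probe sets, 9.78% rose and 7.74% fell. The 2 paralogs became 0 without male larvae replicate 2 and 1 without male pupae replicate 1, and the 14 subunit probe sets became 3 without male larvae replicate 1 or male pupae replicate 1. From pupae to adults the male minus female difference rose for 5 paralogs and fell for 1, and rose for 55 subunit probe sets, against 25.5% and 26.1%. COX7AL2 changed by -0.82 from larvae to pupae and by 2.51 from pupae to adults. With 2 arrays a group, no test for an array far from the others was made.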

How the results depend on the processing

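Across 267 named values and 20 other settings, 5317 values were recomputed: 5093 kept their direction and call, 137 lost the call, 82 gained it and 5 reversed. Of 1260 paralog sex differences, 1259 kept direction and call and 1 gained it. Subunit counts depended on scaling, as follows, and the cause was not tested. The dim filter kept 21 paralog and 57 subunit probe sets.

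Reversed values were ND-13A in larvae (-0.054, adjusted p = 0.569), COX7A in pupae (-0.35, adjusted p = 0.00823) and UQCR-Q in pupae (-0.025, adjusted p = 0.846) under array-median centring, ATPsynbeta in pupae under recentring (0.021, adjusted p = 0.885), and ND-51L1 between female adults and pupae without female pupae replicate 2 (-0.36, adjusted p = 0.0348, all limma; 0.45 without female pupae replicate 1). Subunits higher in male larvae were 1 with array-median centring, the compared groups alone or 1 probe set per gene, and 4 with recentring. Of all probe sets 9.54%, 10.9%, 16.9% and 14.8% were higher under these settings. Subunits lower in male larvae were 56 with array-median centring, 0 with recentring or the groups alone, 1 with the replicate block and 10 with trend and robust. Of all probe sets 79.2%, 7.46%, 19.6%, 25.9% and 26.3% were lower under these settings. Those lower in male pupae were 11 with recentring, against 17.6% of all probe sets. Those lower in male adults were 2, 3 and 0 with quantile normalization, array-median centring and recentring, against 41.1%, 67.6% and 28%. In females, 1 subunit was lower in pupae than in larvae with recentring or trend and robust, against 21.7% and 19.6% of all probe sets. Those higher in female adults than pupae were 16, 22, 16, 5 and 17 with quantile normalization, array-median centring, recentring, the groups alone and trend and robust, and 5 were lower with array-median centring. In males, 0 were lower in adults than pupae with quantile normalization, array-median centring, recentring, the replicate block or 1 probe set per gene. Changed sex differences of subunits between larvae and pupae were 4, 26, 8 and 35 with recentring, the dim filter, the groups alone and trend and robust.

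Leaving out 1 array gave 20, 20 and 21 paralogs higher in males throughout, and 19 higher in male pupae than larvae. Paralogs higher in male adults than pupae were 1 to 4, with 2 without male pupae replicate 2 and 1 without male adults replicate 1, and lower 1 to 6. Paralogs lower in male pupae than larvae were 0 to 1 (1 without male larvae replicate 1). In females, paralogs were 3 to 5 higher and 1 to 2 lower in pupae than larvae (1 without female larvae replicate 1 or female pupae replicate 2), and 1 to 3 higher (1 without female adults replicate 1) and 4 to 7 lower in adults than pupae. Paralogs whose male minus female difference fell were 0 to 2 from larvae to pupae and 0 to 2 from pupae to adults. The latter count was 0 without male pupae replicate 1, female adults replicate 1 or male adults replicate 2. It was 2 without either female larvae array or female pupae replicate 2. Subunits higher in males were 1 to 2 in larvae, 2 to 3 in pupae and 53 to 54 in adults, and lower 0 to 3, 40 to 49 and 0 to 1. The larval higher count was 1 without female larvae replicate 1 or either male larvae array, and the lower count was 0 or 1 without any larval array or either female adult array. The adult lower count was 0 without female adults replicate 2 or male adults replicate 2. At the pupal step, 48 to 54 were higher in males and 54 to 55 in females, with 0 to 1 lower in females (1 without female larvae replicate 1). At the adult step, 54 to 55 were higher and 0 to 1 lower in males, with 0 lower without any male pupal or adult array, and 5 to 10 were higher and 9 to 12 lower in females, with 5 higher without either female pupae array and 6 without either female adult array. Changed sex differences numbered 3 to 12 from larvae to pupae (3 without male larvae replicate 1 or male pupae replicate 1, 4 without male larvae replicate 2, and 6 to 8 without a female larval or pupal array) and 53 to 55 from pupae to adults.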

Other observations

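Of the 4 probe sets that match the rule but carry several genes, the one for COX6AL2 and Ir75d read 5.90 and 6.20 in male larvae against 5.47 and 5.69 in female larvae, 7.14 and 6.83 in male pupae against 5.71 and 5.67 in female pupae, and 7.55 and 7.52 in male adults against 5.48 and 5.57 in female adults. Male arrays were above female arrays at each stage, as for the COX6AL2 probe set with 1 gene. The others carry COX6B with CG18809, ATPsynG with beat-Vb, and ND-AGGG with CG40472, and none of the 4 entered a count above.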
